A study of Mus musculus with 38 samples.

Results

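CREB binding in isolated mouse hepatocytes, the main cell type of liver, was compared between untreated cells and cells given 10 nM glucagon for 1 h. The comparison rests on 2 deposited site lists from chromatin immunoprecipitation with sequencing, chosen by their names: 47596 sites for untreated cells and 28229 for glucagon, together 75825 of the 278566 regions in the 11 lists of the series that could be matched to a group. The hepatocytes came from C57BL/6 mice and were obtained by collagenase perfusion, and the same CREB antibody was used for both groups. The untreated group is 1 library, and the glucagon group is 2 libraries that share 1 list. The labels do not say from how many animals the cells came. Lists from other groups of the series were used to describe the sites. Those from hepatocytes were CREB and the glucocorticoid receptor (GR) in cells given 10 nM glucagon with 1.7 uM corticosterone for 1 h. GR was thus mapped in cells that had received its ligand, and no GR list of glucagon-only cells was used here. The lists from liver of C57BL/6 mice were acetylation of histone H3 at lysine 27 (H3K27ac), CREB and phospho-CREB. These mice were fed or fasted for 24 h, and for H3K27ac also fasted for 10 h. Each liver CREB and phospho-CREB list is named for 2 of the libraries of its group.

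Glucagon is the hormone of the fasted state. It raises cAMP in hepatocytes, which activates protein kinase A, and the kinase phosphorylates CREB, a leucine zipper protein that binds the cAMP response element and recruits coactivators to genes of glucose production. Much of the CREB in a cell is known to sit on its sites before a stimulus. GR is the nuclear receptor for corticosterone, the adrenal hormone that rises in fasting, and it binds mainly at enhancers, which carry H3K27ac when active.

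Each site has a position in build mm9, a highest tag density and a z-score, all made by the authors. There is 1 value per site and none per library, so no spread between replicates exists, no difference below was tested, and every difference is one between lists. The scale of the density is not stated, so sites were ranked by density within their own list (rank 1 is the densest), and the lists were cut to the 28229 densest sites each where lengths had to be equal. The name of the untreated list gives its library paired with itself, whereas that of the glucagon list gives its 2 libraries. The number of sites is 99.6% of the highest running number for the untreated list and 72.0% for the glucagon list. A difference in how the lists were filtered and the effect of glucagon cannot be told apart by length. The read depth is not given: below a density of 10, 72.3% of the untreated values were whole multiples of 0.6406 and 70.9% of the glucagon values were multiples of 0.3094, to within 0.003, and what 1 step stands for is not stated.

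The strongest CREB sites of untreated hepatocytes were all still listed after glucagon. Of the 1000 densest untreated sites, 0 were missing from the glucagon list, and of the first 5000, 26 were missing. Conversely, 9 of the 1000 densest glucagon sites were absent from the untreated list, and 136 of the first 5000. Sites found in 1 list only were thus mostly weak. The untreated list lacked a partner for 26.0% of all glucagon sites (7342), and the glucagon list lacked one for 56.7% of all untreated sites (26990). Among glucagon sites the share without a partner was 0.900% at ranks 1 to 1000, 21.2% at ranks 10001 to 20000 and 57.0% at ranks 20001 to 28229. Among untreated sites it was 0.650% at ranks 1001 to 5000, 38.6% at ranks 10001 to 20000 and 89.2% beyond rank 28229.

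**Figure D1:**
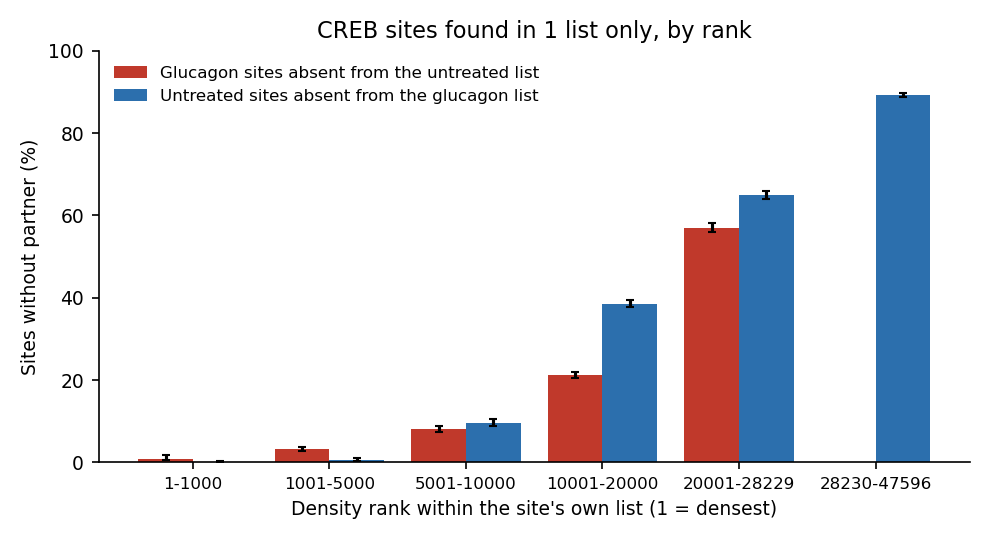
Share of CREB sites (percent, y axis) that overlap no site of the other whole list, by density rank within their own list (x axis), for the glucagon list in red and the untreated list in blue; error bars are 95% Wilson intervals for counting error. The share rises from under 1% among the 1000 densest sites to 57.0% and 64.9% at ranks 20001 to 28229.

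Although the strong sites were present in both lists, their order was not the same. Of the 100 densest sites of either list, 75 were among the 100 densest of the other (75%, 95% Wilson interval 65.7 to 82.5). At the first 1000 the share was 73.7% (70.9 to 76.3) and for the first 5000 glucagon sites 70.5% (69.2 to 71.7), so the agreement between the lists stayed near the same level over this range of ranks. At equal list length an untreated partner was present for 67.2% of the glucagon sites. Overlapping sites were joined in pairs, each site with the best-ranked partner of the other list, which gave 18253 pairs with a Spearman correlation of the ranks of 0.73, a description over sites that share libraries.

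The 5 shared sites with the lowest sum of ranks were chosen for high ranks in both lists, so their like order follows from the choice. The site on chromosome 7 from 52972711 to 52974114 had rank 1 in both lists, with a density of 509.7 in the glucagon list and 1042 in the untreated list. Rank 2 in both belonged to the site on chromosome 8 from 126472348 to 126473873, and rank 3 in both to the one on chromosome 4 from 138935879 to 138937031. A further site, on chromosome 2 from 25187462 to 25188736, had rank 6 with glucagon and 7 without. The last of this set lay on chromosome 5 from 125028499 to 125029695, with ranks 8 and 6. None of these 5 sites overlapped a GR site, and all 5 overlapped a CREB site of fed and of fasted liver and a phospho-CREB site of both. Of the 991 shared sites in the first 1000 glucagon ranks, 29.4% overlapped a GR site. CREB sites of fed and fasted liver met 89.6% and 90.7% of the 991, and phospho-CREB sites 71.7% and 48.0%.

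Rank shifts were found at the top of the lists as well as further down. Of the 125 pairs with the better rank from 1 to 100, 22 (17.6%) had a rank at least 2 times better with glucagon. A rank at least 2 times worse was found in 23 (18.4%), of which 12 lay in 1 stretch of chromosome 6 described below. Among the 6274 pairs with at least 1 of their ranks in the first 5000, 1211 (19.3%) had a glucagon rank at least 2 times better than the untreated rank, here called raised, and 1018 (16.2%) had one at least 2 times worse, called lowered. The other 4045 pairs are called kept. Over all 6274 pairs the raised and lowered classes were closer in number than in size. Their numbers varied with rank. At better ranks 101 to 1000, 227 of 1126 pairs were raised and 86 lowered. At 1001 to 2000 the counts were 256 and 160 of 1278, and at 2001 to 5000 they were 706 and 749 of 3745. A shift of 4-fold or more was found in 580 raised and 40 lowered pairs, and a shift of 8-fold or more in 196 raised and 0 lowered pairs. Ranks are relative to the other sites of a list, so a lower rank is not a measure of less binding. The cause of the lowered ranks was not tested. The count of lowered pairs depends on the scale. With ranks taken as a share of each whole list, an alternative chosen after seeing the data, 738 pairs were raised and 5140 lowered. That setting joins the uncut lists, so these are not counts out of the 6274 pairs. It scales every untreated rank by the ratio of the list lengths, which moves all shifts equally towards lowered. The nearest pairs on either side of the limit for raised pairs had shifts of 2-fold and 1.997-fold, and for lowered pairs 2-fold and 1.999-fold.

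The 5 steepest climbs to one of the first 1000 glucagon ranks illustrate the size of the shift. On chromosome 8 from 10856748 to 10858029 the rank went from 12496 to 50, with a width of 665 bp in the untreated list and 1282 bp in the glucagon list. A second site on chromosome 8, from 41743908 to 41745278, went from rank 1874 to 9. Chromosome 6 held one from 122565661 to 122566523 that went from 17497 to 104, and chromosome 7 one from 91349347 to 91350645 that went from 4677 to 75. The site on chromosome 4 from 35172944 to 35174478 was already strong in untreated cells, at rank 641, and became the fifth densest site of the glucagon list. In the separate libraries given both hormones these 5 sites had ranks of 15, 5, 810, 89 and 2 in the order named here, so 4 of them were again among the 100 densest. Those 4 also overlapped a strong GR site, with GR ranks of 134 and 34 on chromosome 8, 151 on chromosome 7 and 20 on chromosome 4. The one on chromosome 6, which stood at rank 810 with both hormones, overlapped no GR site.

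**Figure D2:**
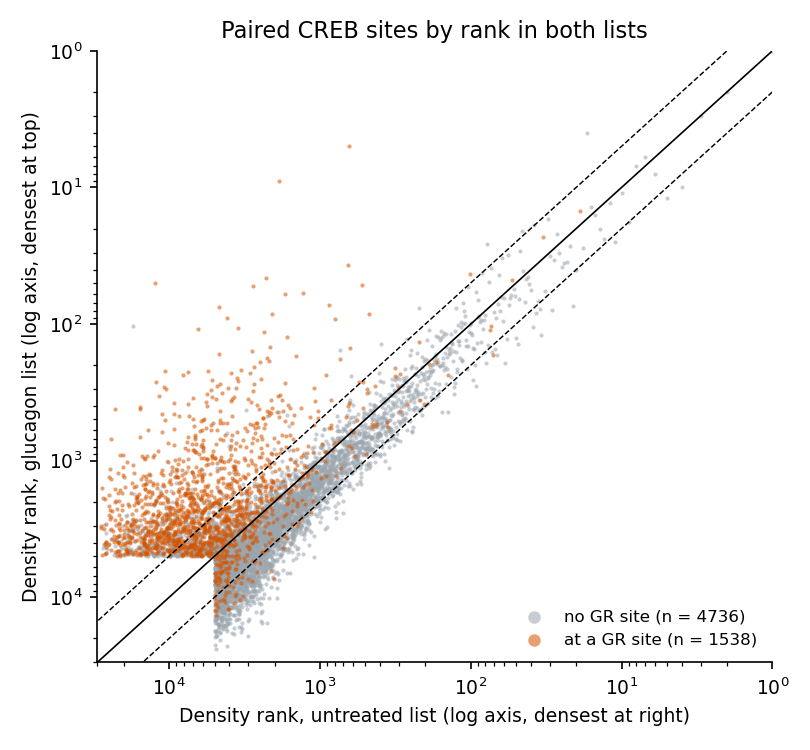
Density rank in the glucagon list (y axis, log scale, densest at the top) against the rank in the untreated list (x axis, log scale, densest at the right) for the 6274 pairs with at least 1 rank in the first 5000; the solid line marks equal ranks and the dashed lines a 2-fold shift. Orange pairs overlap a GR site (1538) and make up most of the cloud above the upper dashed line, while most of the 4736 grey pairs lie below the solid line, with 304 of them above the upper dashed line.

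Raised sites were largely GR sites. GR lay at 907 of the 1211 raised pairs (74.9%, with an interval of 72.4 to 77.3), compared with 588 of the 4045 kept pairs (14.5%, 13.5 to 15.7) and 43 of the 1018 lowered pairs (4.22%, 3.15 to 5.64). The share rose with the size of the climb. It was 84.5% of the 580 pairs raised at least 4-fold, 97.4% of the 196 raised at least 8-fold (interval 94.2 to 98.9), and 54 of the 55 raised at least 16-fold. None of the 40 pairs lowered at least 4-fold overlapped a GR site, a count that allows a share of up to 8.76%. Among pairs with the better rank in the first 1000, 92.4% of 249 raised, 6.94% of 893 kept and 0.917% of 109 lowered pairs were GR sites. At ranks 2001 to 5000 the shares were 63.9%, 18.3% and 4.81%. The order of the classes was thus the same at strong and weaker sites. The GR share of raised pairs was itself higher at the better ranks. In a list of limited length a large climb also needs a good glucagon rank. The rise of the GR share with the size of the climb was not compared at like rank, so it cannot be told apart from the change with rank.

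Wider sites can meet another region more easily, but the 3 classes kept this order at like width in the glucagon list. That width differed by class, as 82.2% of raised and 8.94% of lowered pairs were wider with glucagon. Widths in the untreated list were not used for these bins. For sites of 251 to 900 bp, 58.7% of raised, 14.9% of kept and 3.69% of lowered pairs overlapped a GR site. At 901 to 1300 bp the shares were 81.2%, 13.7% and 4.79%. At 1301 bp and more they were 91.3%, 15.8% and 6.17%. Among pairs that overlap a GR site, which are close to it by choice, the distance between midpoints of the CREB site and its strongest GR site was measured. The median was 49.5 bp in 907 raised, 69.2 bp in 588 kept and 102 bp in 43 lowered pairs. The median GR ranks of these classes differed too, at 1119, 2491 and 3589.

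Seen from the GR side, the rank of a CREB site moved with the strength of the GR site on it. Of the 306 pairs at one of the 500 densest GR sites, 83.7% were raised (interval 79.1 to 87.4) and 2 were lowered. Their median log2 shift, the untreated over the glucagon rank, was 2.24, and 96.1% had the better rank in the glucagon list. At GR ranks 501 to 2000, 67.4% of 564 pairs were raised, with a median log2 shift of 1.60. At GR ranks 2001 to 5000 it was 43.9% of 592 pairs and 0.80. At weaker GR sites 11 of 76 pairs were raised, with a median of -0.43. The 4736 pairs without a GR site had a median of -0.52, and 6.42% of them were raised (5.76 to 7.15). Of the 500 densest GR sites themselves, 258 lay at a raised pair, 48 at a kept pair and 2 at a lowered pair. Most of these GR sites already held CREB without hormone: 406 of the 500 overlapped a site of the untreated list and 437 one of the glucagon list.

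**Figure D3:**
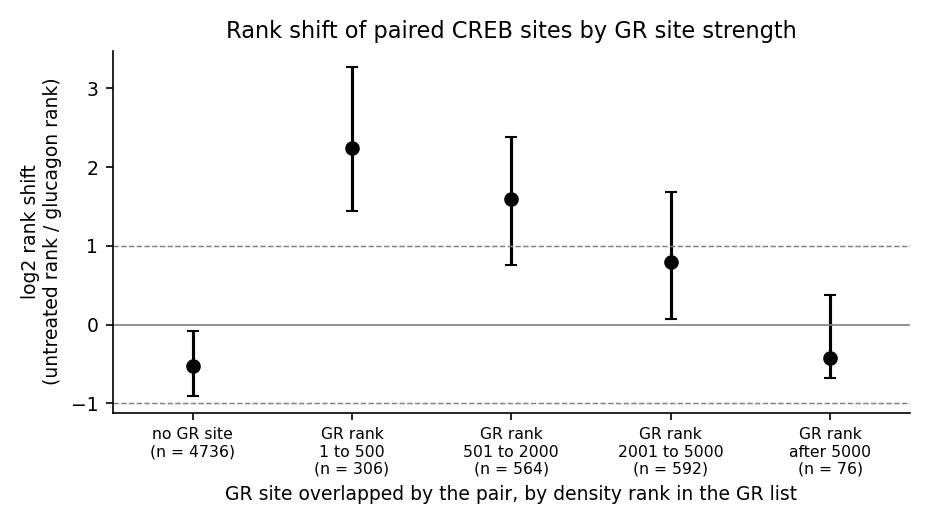
Median log2 rank shift of paired CREB sites (y axis, untreated rank over glucagon rank, so that values above 0 mean a better rank with glucagon; bars run from the lower to the upper quartile of the pairs) for pairs without a GR site and for pairs at GR sites of decreasing density rank (x axis). The median falls from 2.24 at the 500 densest GR sites to -0.43 beyond GR rank 5000, next to -0.52 without a GR site, and the dashed lines mark a 2-fold shift.

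GR was mapped only in cells given corticosterone, so whether the receptor sat on these sites in cells given glucagon alone was not tested. The CREB libraries given both hormones offer a comparison with cells that the pairing did not use. Cut to the same length, that list held 1209 of the 1211 raised and 1011 of the 1018 lowered pairs. The median rank of the raised pairs was 9202 in untreated cells, 2363 with glucagon and 1959 with both hormones. For the lowered pairs the medians were 2922, 7522 and 6695. The rank with both hormones was nearer, as a ratio, to the glucagon rank than to the untreated rank in 89.2% of raised pairs (interval 87.4 to 90.9) and in 93.0% of lowered pairs (91.2 to 94.4). This held for 77.6% of the kept pairs as well, and both hormone lists come from a pair of libraries each while the untreated list comes from 1. The part of these differences between the libraries in this result was not tested.

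**Figure D4:**
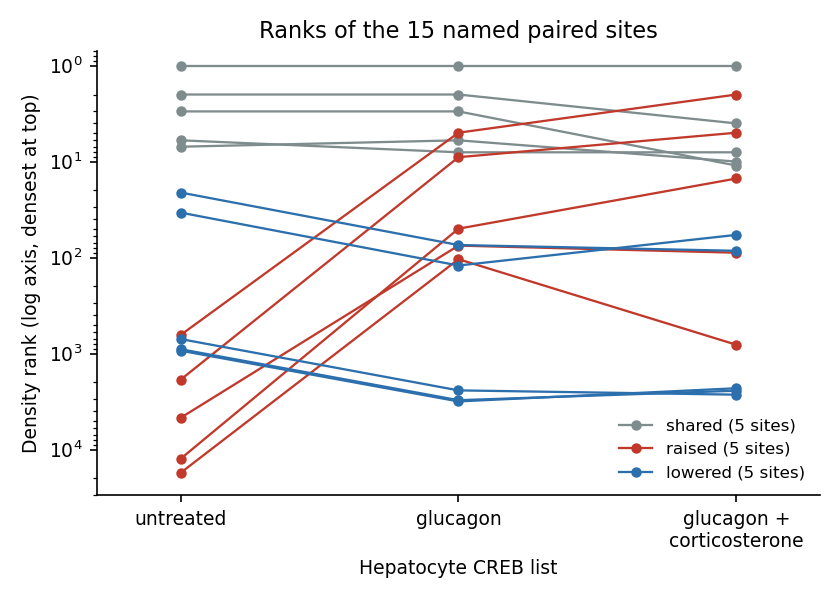
Density ranks (y axis, log scale, densest at the top) of 15 named paired sites in the untreated, glucagon, and glucagon plus corticosterone CREB lists (x axis): 5 shared sites with the best ranks in grey, the 5 steepest climbs in red and the 5 steepest falls in blue. The red sites rise from ranks of 641 to 17497 into the first 104 with glucagon, and 4 of them stay in the first 100 with both hormones.

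Lowered sites moved less, and few of them met a GR site. The 5 steepest falls from one of the first 1000 untreated ranks spanned 3.38-fold to 3.56-fold. Rank 34 became 121 at the site of chromosome 6 that spans 47712814 to 47714127, and rank 21 became 74 at the site of chromosome 17 that spans 15115017 to 15116318. The other 3 sites of this set fell from ranks of 706 to 933 to ranks of 2419 to 3153. They spanned 101303256 to 101304088 of chromosome 11, and 112645728 to 112647340 and 122258268 to 122259269 of chromosome 6. None of the 5 overlapped a GR site, and all 5 were also in the fed and the fasted liver CREB lists. Of all 109 lowered pairs with the better rank in the first 1000, 0.917% overlapped a GR site. CREB sites of fed and fasted liver met 99.1% and 97.2% of the 109. Of the 23 lowered pairs with a rank in the first 100, 12 lay in a single stretch of 124.3 kb on chromosome 6 from 47604303 to 47728614. That stretch, singled out after its values were seen, held 18 pairs, of which 15 were lowered and 3 kept. None of the 18 lay in an H3K27ac region of fed or 24 h fasted liver, and 17 overlapped a CREB site of fed liver. Their median z-score in the glucagon list was 341.8, against 49.7 over all 6274 pairs. The second densest site that was in the untreated list only, at rank 1388, lay just outside it from 47600583 to 47601153. Without the stretch 1003 lowered pairs were left.

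A minority of the raised sites stood close to each other. Of the 1211 raised pairs, 421 had another of the 6274 pairs within 10 kb, and of these 421 the nearest one was raised too in 68.6%, kept in 28.0% and lowered in 3.33%. For the 679 kept pairs with such a neighbour, the nearest was raised in 17.4% and kept in 70.4%. For the 129 lowered pairs with one, it was lowered in 21.7% and kept in 67.4%. Over all 6274 pairs 1211 were raised and 4045 kept. Linking raised sites no more than 10 kb apart gave 28 runs of at least 3 sites, with 91 sites in all. Lowered sites gave 2 such runs, both in the stretch on chromosome 6, and runs of kept sites were not counted. The run with the most raised sites covered 17.1 kb on chromosome 8 from 41738640 to 41755720 and held 5 sites, all of them at GR sites. Its leading site is the one that climbed from rank 1874 to 9. The others went from rank 2769 to 549, from 5971 to 807, from 19876 to 3245 and from 9049 to 4174. Other runs, chosen here after their values were seen, were shorter in sites. On chromosome 15 from 101076093 to 101097789, 4 raised sites stood in 21.7 kb, again all at GR sites, with climbs of 2.33-fold to 13.9-fold. On chromosome 13 from 52916912 to 52927347, 3 raised sites, all at GR sites, had climbed 13.9-fold to 21.2-fold. On chromosome 2 from 167592651 to 167603869, 3 raised sites at GR sites had shifts of 5.54-fold to 20.4-fold.

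In liver, raised sites were found in active chromatin and at CREB sites less often than kept sites. An H3K27ac region of fed liver covered 55.7% of the raised pairs (interval 52.9 to 58.5), 78.8% of the kept pairs (77.5 to 80.0) and 75.9% of the lowered pairs (73.2 to 78.5). For liver fasted for 24 h the shares were 59.4%, 80.6% and 78.0%. The H3K27ac lists were then cut to 29917 regions each. Of the raised pairs, 73 (6.03%) lay in a region of the 24 h list only and 36 (2.97%) in one of the fed list only. For kept pairs the counts were 158 (3.91%) and 98 (2.42%), and for lowered pairs 36 (3.54%) and 17 (1.67%). In all 3 classes the 24 h list thus held more of the pairs found in 1 list only. The liver CREB lists of fed and fasted mice differed by class. With both liver CREB lists cut to 11339 sites, 36.3% of the raised pairs were in the fed list and 36.7% in the fasted list. Of the lowered pairs, 61.0% were in the fed list and 48.9% in the fasted list. Lowered pairs in the fed list only numbered 144 and those in the fasted list only 21, while for raised pairs the counts were 112 and 116, and for kept pairs 422 and 144. Phospho-CREB sites of fed liver overlapped 27.3% of the kept pairs, 13.7% of the lowered and 8.09% of the raised pairs. For phospho-CREB of fasted liver the shares were 12.2%, 4.62% and 5.28% in the same order. The gap to the lowered pairs in H3K27ac varied with rank. Among pairs with the better rank in the first 1000, a 24 h fasted H3K27ac region covered 73.5% of raised, 82.6% of kept and 73.4% of lowered pairs, and at ranks 2001 to 5000 it covered 55.7%, 78.5% and 77.7%. CREB sites of fasted liver met 66.7%, 98.7% and 97.2% of these classes in the first 1000, and 24.6%, 43.1% and 35.6% at ranks 2001 to 5000.

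**Figure D5:**
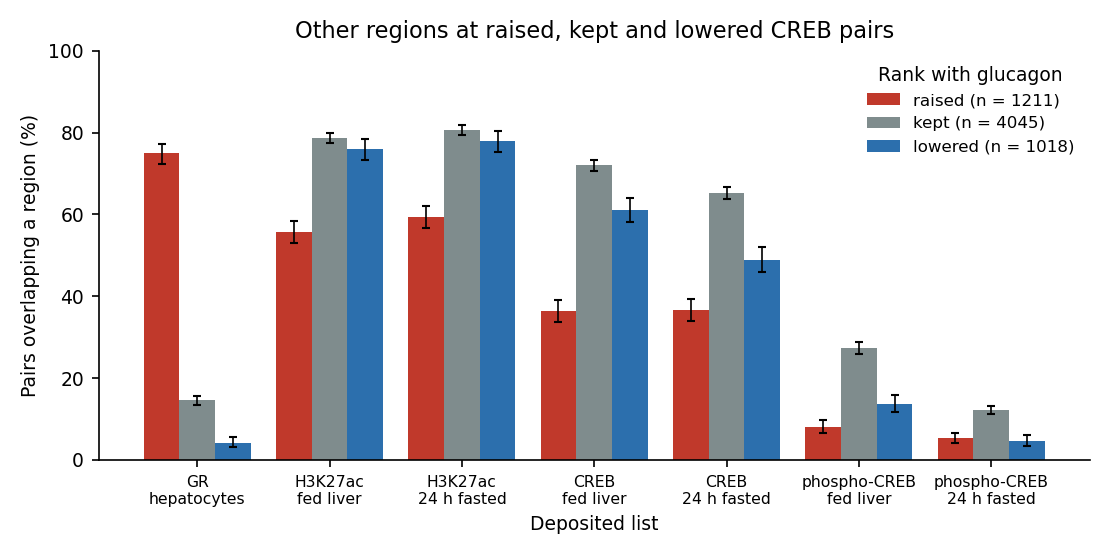
Share of raised, kept and lowered CREB pairs (percent, y axis) that overlap a region of 7 other deposited lists (x axis), with 95% Wilson intervals for counting error. At GR sites the raised pairs lead with 74.9% against 14.5% and 4.22%, and over all 6274 pairs they have the lowest share in the H3K27ac and the CREB lists of liver.

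The raised pairs without a GR site were a smaller group with smaller shifts. These 304 pairs had a median shift of 3.10-fold, against 4.26-fold for the 907 raised pairs at GR sites, and 5 of them were raised 8-fold or more. An H3K27ac region of fed liver covered 47.4% of them, against 58.5% of the raised pairs at GR sites. CREB sites of fasted liver met 24.0% and 40.9% of these groups, and CREB sites of fed liver 30.3% and 38.4%. The site on chromosome 6 from 122565661 to 122566523, raised 168-fold, was the steepest climb of the raised pairs without a GR site. The 304 and 907 pairs were not matched for rank. Of all raised pairs, 92.4% overlapped a GR site at better ranks 1 to 1000 and 63.9% at ranks 2001 to 5000. CREB sites of fasted liver met 66.7% and 24.6% of raised pairs at these ranks, and H3K27ac regions of fed liver 66.7% and 53.3%. Weaker ranks also leave less room for a large climb. The part of rank in these contrasts was not tested.

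Shape moved together with rank, as density, z-score and width come from the same tags. Raised pairs had a median width of 973 bp in the glucagon list and 793 bp in the untreated list, and 82.2% were wider with glucagon. Kept pairs had medians of 991 and 1146 bp, and 21.1% were wider with glucagon. For lowered pairs the medians were 822.5 and 1056.5 bp. By z-score rank, 99.7% of the raised pairs also stood higher with glucagon, and 99.4% of the lowered pairs stood lower.

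The GR share of sites that the glucagon list had and the untreated list lacked depended on their rank. Over all 7342 it was 11.9%, below the 16.6% of shared sites, and in the first 20000 it was 17.3% against 17.6%. Among the densest sites it was above that of shared sites. Of the 136 such sites in the first 5000, 69 overlapped a GR site (50.7%, interval 42.4 to 59.0), 31 an H3K27ac region of 24 h fasted liver (22.8%) and 135 a CREB site of the cells given both hormones. Shared sites of the same ranks overlapped GR at 30.3% and H3K27ac at 74.8%, and 4862 of 4864 were in the list for both hormones. The 26 sites of the first 5000 untreated ranks that glucagon cells lacked differed from these, with 1 at a GR site and 15 in such an H3K27ac region (57.7%, 38.9 to 74.5). Of the 26, 22 were found in the list for both hormones, which has 42090 sites and is longer than the glucagon list. Among all 7342 glucagon-only sites, 46.9% were in the list for both hormones, against 96.8% of the 536 in the first 10000. That list held 93.5% of all shared sites, 99.4% of those in the first 10000 glucagon ranks and 26.3% of all untreated-only sites.

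The 10 densest glucagon-only sites had glucagon ranks of 173 to 1163 and densities of 65.6 to 172.0. Of these, 9 overlapped a GR site and all 10 were in the list for both hormones, where their ranks ran from 108 to 3745. The leading site, on chromosome 19 from 53495224 to 53496249, had rank 173 with glucagon and rank 322 with both hormones, and its GR site had rank 284. A site on chromosome 2 from 65064300 to 65065867 had rank 919 with glucagon and 109 with both, at the GR site of rank 37, and was the only 1 of the 10 in an H3K27ac region of 24 h fasted liver. Chromosome 13 held a site from 118847333 to 118847949 that met no GR site and went from rank 651 with glucagon to 3745 with both. The 5 densest untreated-only sites were weaker, with untreated ranks of 1255 to 3670. Of these, 4 were present with both hormones, at ranks of 10079 to 13972. The broadest, on chromosome 11 from 86391766 to 86396692, was 4927 bp wide and was the only 1 of the 5 at a GR site.

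Glucagon-only sites lay a median of 9.66 kb from the nearest untreated site, and 50.6% had one within 10 kb. Within the glucagon list itself, they lay a median of 18.5 kb from another glucagon site, with 41.2% within 10 kb. Shared glucagon sites were closer to another glucagon site, with a median of 7.60 kb and 55.4% within 10 kb. For the 136 glucagon-only sites in the first 5000, the median to the nearest untreated site was 5.54 kb. Of these 136, 66.9% had an untreated site within 10 kb and 9.56% within 500 bp. Untreated-only sites lay farther from the nearest glucagon site, with a median of 28.6 kb and 39.3% beyond 50 kb, measured against a list with fewer sites. In width, sites found in 1 list only were narrower than shared sites of the same rank: at ranks 10001 to 20000 the medians were 471 against 576 bp in the glucagon list and 536 against 671 bp in the untreated list.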

How the data were processed

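The sources name CASAVA 1.8 and build mm9, per the submitters' processing notes, and the names of the lists name hotspot regions at a false discovery rate of 0 or pooled libraries. Which aligner and settings were used is not stated. Per the file headers, the authors computed the highest tag density of each region, which is a signal on an unstated scale. The z-score of each region is a score that the authors computed, per the file headers. A deposited p-value per region, also from the authors, was not used. Library numbers tied 11 of the 13 lists to a group; 2 lists, with 8 columns of values, were not used. Positions are as deposited.

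Sites sharing at least 1 base were matched. Ties in density were ordered by z-score, then position. Pairs are mutual best-ranked partners in lists of 28229 sites, and those with the better rank within 5000 were classed. Intervals are 95% Wilson intervals and cover counting error only. The overlap and ranking code was tested on simulated lists. The work used pandas 2.3.3 and numpy 2.4.6 under Python 3.11.15, with intervals from SciPy 1.17.1 and plots from matplotlib 3.10.9.

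The comparison and classes were chosen with earlier results of these data known. Named sites are the 5 shared sites with the lowest sum of ranks, the 10 densest glucagon-only and 5 densest untreated-only sites, and the 5 steepest rises and falls among sites with a rank in the first 1000. Genes were not assigned to sites, nor was a motif searched, because no mm9 genome or annotation was used here. Alternatives tried were the overlap rule, list cuts, z-score ranks, the rank limit and ratio, single partners, midpoint windows, and ranks as a share of the list.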

Additional observations from a re-analysis of the deposited data

How the results depend on the processing

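The planned motif search and gene loci were not run. No paired analysis was possible because the lists give no value per library; leaving out a library was impossible for the same reason. Of 53 alternatives, 19 gave a value within the interval of the reported one, or within 1.5 times of a count. For glucagon sites at an untreated site (74.0%), the share was 72.6% with an overlap of 50% of the shorter site, 76.8% with a gap of 500 bp and 87.5% in the upper 50% of each list. For untreated sites at a glucagon site (43.3%), it was 42.3%, 47.3% and 51.8%, and 44.2% without chromosomes X and Y. At equal length (67.2%), it was 66.3%, 69.6% and 74.7%, and 64.2% by z-score. Raised pairs numbered 580 at a rank ratio of 4, 505 in the first 2000 and 1828 in the first 10000. With ranks as a share of each list they numbered 738. Lowered pairs numbered 40, 269, 1693 and 5140 in the same order. The ratio of 4 was applied to the same 6274 pairs. The other settings changed which pairs were classed, so their counts cannot be compared as shares. The GR share of raised pairs was 80.2% by z-score, 84.5% at a ratio of 4, 60.2% in the first 10000 and 82.7% with ranks as a share; for lowered pairs it was 0% at a ratio of 4 and 6.07% with ranks as a share. The H3K27ac share (24 h) of raised pairs was 49.7% by z-score, 52.4% at a ratio of 4 and 54.6% in the first 10000, and of lowered pairs 62.5% at a ratio of 4 and 75% in the first 10000. The fasted liver CREB share was 27.8% of raised pairs in the first 10000, and of lowered pairs 30% at a ratio of 4 and 32.9% in the first 10000; at a ratio of 4 the raised share (35%) was the higher of the 2. The GR share was higher in raised than in lowered pairs under every alternative that gave both shares. Of glucagon-only sites, 96.8% of those in the first 10000 were in the list for both hormones. The cause of these shifts was not tested, beyond the smaller or larger number of sites that a limit admits.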

Other observations

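Chromosome X stood apart from the autosomes in both lists. Of its 738 glucagon sites, 43.2% had no partner in the untreated list, while the autosomes ranged from 19.2% on chromosome 11 to 30.5% on chromosome 1. Of its 1945 untreated sites, 78.8% had no partner in the glucagon list, while the autosomes ranged from 49.1% on chromosome 11 to 61.9% on chromosome 3. Only 408 of these 1945 sites were among the 28229 densest of the 47596 sites of the untreated list. The shares without a partner were not compared with the autosomes at like rank. Among the 75 pairs on chromosome X with a rank in the first 5000, 7 were raised and 17 lowered. Over all 6274 pairs 19.3% were raised and 16.2% lowered.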
